A study of Homo sapiens with 95 samples.

Results

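The transcriptional response of FAT1 knockout cells to cigarette smoke condensate (CSC) was profiled by sparse full length sequencing, a highly multiplexed RNA sequencing method that depletes ribosomal RNA and reads fragments from the whole transcript. The cells were AALE, an immortalized human bronchial epithelial cell line, in which FAT1 had been knocked out by CRISPR. The response was read from 6 of the 95 samples of the series, namely 3 libraries of cells given CSC at 24 μg/ml and 3 libraries of cells given the vehicle DMSO. All 6 carried the same knockout, so that the only labelled difference between the groups was CSC. The same contrast was fitted in AALE cells transfected with the pSpCas9-EGFP plasmid PX458 without a guide RNA (GFP control cells), again with 3 CSC and 3 DMSO libraries. Its values are set beside many, but not all, of the changes named below. The labels name the GFP samples as knockouts too, although no guide was given. Whether the FAT1 knockout was 1 clone or a pool, the guide used and the length of exposure are not given in the sources used here. The study calls the 3 libraries of a group biological replicates, but how far back they were separate cultures is not given in the sources used here, so p-values measure only the spread between these libraries, which may be technical.

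FAT1 encodes a giant atypical cadherin of the cell surface that is linked to cell adhesion and to the Hippo pathway, and it is recurrently mutated in squamous cancers. CSC is the particulate matter of cigarette smoke, taken up in solvent, and holds polycyclic aromatic hydrocarbons together with quinones and other electrophiles. Aromatic hydrocarbons bind the aryl hydrocarbon receptor (AhR), which pairs with ARNT on DNA and switches on oxidases such as CYP1A1, while electrophiles and oxidants release the factor NRF2 from its repressor KEAP1 and so raise genes for glutathione, thioredoxin and NADPH supply. Airway basal cells, from which lines such as AALE derive much of their character, are recognised by keratins 5 and 14 and by the factor TP63.

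The 12 libraries held between 763275 and 1517412 reads counted in genes. Within the FAT1 knockout cells the CSC libraries were shallower, at 763275 to 934235 reads, than the DMSO libraries, at 970886 to 1333632 reads. When every library was thinned at random to the smallest one, 1310 genes still passed the test described next, against 1780 at full depth. At these depths a count of 3 reads corresponds to between 1.98 and 3.93 reads per 1000000 counted reads (CPM), and genes near that level are measured poorly. Replicates of 1 group correlated more closely (Pearson's r between 0.96 and 0.977 across genes) than libraries of different groups (0.86 to 0.948). In this text CPM values are scaled by the trimmed mean of M values (TMM) over the 12 libraries.

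The targeted gene was examined first. FAT1 (GRCh37, chr4:187508948-187647876, minus strand) was measured at 127, 108 and 125 CPM in the 3 DMSO libraries of the knockout cells and at 122, 93.6 and 98 CPM in their 3 CSC libraries. In the GFP control cells it was measured at 398, 397 and 449 CPM with DMSO and at 363, 389 and 400 CPM with CSC. FAT1 RNA was thus lower in every knockout library than in every control library, with a mean 3.47-fold lower under DMSO and 3.67-fold lower under CSC, and it remained well above the detection floor. The RNA level does not report the edit itself, since a frameshifted transcript can still be read. CSC did not shift FAT1 RNA beyond the spread in the knockout cells (log2 fold change -0.19 ± 0.13 SE, adjusted p = 0.401).

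The identity of the cells was checked against marker genes. KRT5, the basal keratin, stood at 2974, 2923 and 2955 CPM in the DMSO libraries of the knockout cells and TP63 was detected in all 12 libraries. KRT14, its basal partner, was at 57.1, 35.6 and 43.5 CPM in the knockout cells under DMSO against 363, 411 and 415 CPM in the GFP control cells, so that every control library lay above every knockout library before any CSC was given. Of 8 secretory and ciliated markers, 7 fell below the mean count of 1 needed for testing in the knockout cells, SCGB1A1 was at 0 in all 12 libraries, and the list summed to between 6.05 and 15.3 CPM. Of 12 fibroblast, endothelial and leukocyte markers, 10 fell below that mean count and 5 were at 0 in all 12 libraries, among them COL3A1, VWF, CDH5 and CD3E.

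With CSC, 1056 of 14049 genes tested were higher in FAT1 knockout cells (7.52%) and 724 were lower (5.15%), by limma-voom with an adjusted p under 0.05. The same contrast in GFP control cells gave 1717 higher (12%) and 1858 lower (13%) of 14328 genes. A smaller number of calls does not show that the knockout cells responded less, and the difference between the lines was tested gene by gene further on. The fold changes carried a trend with the base composition of the transcript, described in its own paragraph. Each gene with a known composition was therefore also tested after a correction for GC content and length. That correction left 310 genes higher (2.36%) and 386 lower (2.93%) of 13161 with a known composition, which moved the share of higher genes among the calls from 59.3% to 44.5%. Of the 1056 and 724 calls, 262 and 243 passed after it in the same direction. Leaving out 1 library gave 1275 to 1552 calls in the knockout cells except without FAT1 CSC replicate 3, which gave 1126.

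The AhR battery held the 2 steepest rises. Of its 12 genes, 11 had enough reads to be tested. Of these 6 rose and none fell, where 7.52% of all genes were higher, and the median log2 fold change was 1.41 against 0.00822 over all genes. CYP1A1, the oxidase that hydroxylates aromatic hydrocarbons (GRCh37, chr15:75011883-75017877, minus strand), went from 8.26, 8.69 and 5.06 CPM with DMSO to 793, 683 and 754 CPM with CSC, a fitted 96.7-fold rise (log2 fold change 6.60 ± 0.30 SE, adjusted p = 4.57e-44). The 2 groups were far apart and the 3 CSC libraries lay close together. The related oxidase CYP1B1 was measured at 53.3, 64.3 and 45.6 CPM with DMSO and 1172, 1181 and 1143 CPM with CSC (4.43 ± 0.12, adjusted p = 2.4e-69). In GFP control cells CYP1A1 went from 10.7, 4.81 and 7.72 to 505, 551 and 409 CPM and CYP1B1 from 46.9, 52.9 and 68.7 to 704, 725 and 811 CPM. The CSC libraries of the knockout cells lay above those of the control cells for both oxidases, but the difference of the CSC effects did not pass the test for CYP1A1 (0.58 ± 0.47, adjusted p = 0.787) or CYP1B1 (0.68 ± 0.18, adjusted p = 0.167).

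The feedback arm of the receptor rose as well. TIPARP, a mono-ADP-ribosyltransferase that restrains AhR, went from 107, 79.9 and 88.1 to 372, 327 and 347 CPM (1.93 ± 0.11, adjusted p = 3.1e-33). AHRR, a repressor that competes with AhR for ARNT, went from 3.76, 1.74 and 3.04 to 37.6, 16.7 and 20 CPM (2.91 ± 0.50, adjusted p = 2.99e-06). The replicate 1 library under CSC was the highest for AHRR, and the 2 groups did not overlap for either gene. AHR itself, at 189, 206 and 182 CPM with DMSO and 195, 201 and 179 CPM with CSC, did not pass the test (0.0030 ± 0.10, adjusted p = 0.99), and its partner ARNT gave -0.15 ± 0.15 (adjusted p = 0.576).

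Among the conjugating and reducing enzymes of the battery, NQO1, a quinone reductase shared with the NRF2 list, went from 54.8, 68.6 and 94.2 to 186, 155 and 205 CPM (1.41 ± 0.14, adjusted p = 1.85e-16). ALDH3A1, an aldehyde dehydrogenase, went from 6.76, 8.69 and 3.04 to 20, 15.4 and 19 CPM (1.57 ± 0.40, adjusted p = 0.00255). Both genes separated the groups, but ALDH3A1 missed the threshold after the GC correction (1.20, adjusted p = 0.0528), and with DESeq2 it gave an adjusted p of 0.0692. Both were also more abundant in the control line, where NQO1 stood at 164, 153 and 126 CPM with DMSO and ALDH3A1 at 13.7, 13.5 and 17 CPM. There NQO1 rose by 1.64 (adjusted p = 1.32e-24) and ALDH3A1 by 1.94 (adjusted p = 1.31e-09). UGT1A6, a glucuronosyltransferase whose locus shares exons with other UGT1A genes so that its reads may be divided among them, gave 0.76 ± 0.46 (adjusted p = 0.308), and CYP2S1 gave 0.18 ± 0.43 (adjusted p = 0.842). CYP1A2, the liver oxidase beside CYP1A1, had 1 read in the 6 libraries of the knockout cells and was not tested. The other 5 genes that rose also passed after the GC correction.

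**Figure D1:**
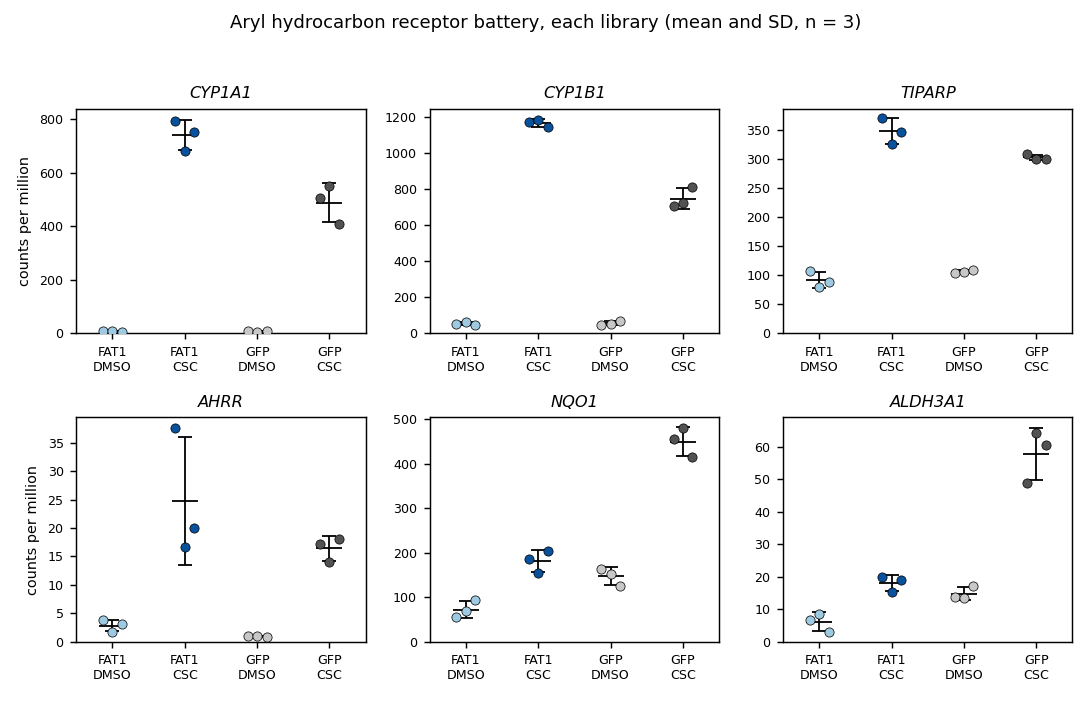
Levels of 6 genes of the aryl hydrocarbon receptor battery in CPM (vertical axis, starting at 0) for FAT1 knockout and GFP control cells given DMSO or CSC (horizontal axis). Points are single libraries, and the bars give the mean and SD of 3. In FAT1 cells every CSC library lay above every DMSO library for all 6 genes, and CYP1A1 reached 683 to 793 CPM against at most 8.69 CPM with DMSO. The share of all genes without overlap is not given here.

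The start regions of 5 genes that rose were searched for the core of the dioxin response element bound by AhR and ARNT (GCGTG) and the core of the antioxidant response element bound by NRF2 (TGACNNNGC), on both strands. The RefSeq table (build GRCh38.p14) held 8 windows for CYP1A1, TIPARP, NQO1, TXNRD1 and GCLM, each from 250 bases before to 50 bases after an annotated start. The 250 bases before the start are shown, 5′ to 3′ on the strand of the gene, for the 5 windows that held a match there. These genes were chosen as examples of the AhR and NRF2 lists. The NQO1 window held 1 match of GCGTG, on the other strand, which begins at base 2 after the start. Capitals mark the matches, which read CACGC or GCNNNGTCA where the core lies on the other strand.
CYP1A1 (chr15:74725529-74725778, minus strand): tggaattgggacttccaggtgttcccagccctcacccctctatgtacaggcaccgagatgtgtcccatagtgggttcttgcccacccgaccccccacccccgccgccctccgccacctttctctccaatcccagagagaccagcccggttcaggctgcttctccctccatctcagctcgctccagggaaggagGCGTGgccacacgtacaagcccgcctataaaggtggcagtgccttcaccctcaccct
TIPARP (chr3:156674340-156674589, plus strand): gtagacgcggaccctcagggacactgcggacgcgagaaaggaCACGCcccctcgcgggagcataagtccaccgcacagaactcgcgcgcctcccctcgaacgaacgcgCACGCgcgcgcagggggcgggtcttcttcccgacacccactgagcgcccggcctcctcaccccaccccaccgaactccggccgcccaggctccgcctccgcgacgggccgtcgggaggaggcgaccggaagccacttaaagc
TXNRD1, upstream start (chr12:104215529-104215778, plus strand): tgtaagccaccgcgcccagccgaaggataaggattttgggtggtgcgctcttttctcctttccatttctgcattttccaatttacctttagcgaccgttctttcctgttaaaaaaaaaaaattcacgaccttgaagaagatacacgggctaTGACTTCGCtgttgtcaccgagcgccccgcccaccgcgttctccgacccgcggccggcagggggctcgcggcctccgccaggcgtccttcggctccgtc
TXNRD1, downstream start (chr12:104286782-104287031, plus strand): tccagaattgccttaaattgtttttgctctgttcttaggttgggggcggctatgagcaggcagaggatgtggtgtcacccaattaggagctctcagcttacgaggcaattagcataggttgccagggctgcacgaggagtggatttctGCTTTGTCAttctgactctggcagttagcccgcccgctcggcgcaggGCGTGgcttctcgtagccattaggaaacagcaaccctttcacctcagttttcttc
GCLM (chr1:93909431-93909680, minus strand): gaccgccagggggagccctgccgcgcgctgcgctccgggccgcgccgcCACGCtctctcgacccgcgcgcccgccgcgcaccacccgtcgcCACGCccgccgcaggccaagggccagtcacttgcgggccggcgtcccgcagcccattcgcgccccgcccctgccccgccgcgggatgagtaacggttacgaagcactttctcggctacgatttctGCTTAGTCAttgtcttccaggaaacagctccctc
A further match of TGACNNNGC in the first TXNRD1 window, on the other strand, begins 8 bases before the start and runs past it, and is not in capitals. These letters are common: GCGTG was found in 36.5% of all 35116 windows of the table, and TGACNNNGC in 13.3%. Among the first windows of genes that were tested, GCGTG was held by 50.3%, by 51.7% of the genes that rose and by 50.9% of those that fell. The corresponding shares for TGACNNNGC were 15.1%, 18.6% and 15.4%. A match describes the letters in a window and is no measured binding site.

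The 12 largest rises among genes averaging 10 or more reads held CYP1A1, CYP1B1 and AHRR, and 9 genes from outside the AhR list. DHRS3, a retinaldehyde reductase, went from 6.76, 9.55 and 6.07 to 36.4, 46.2 and 38 CPM (2.38 ± 0.33, adjusted p = 4.11e-09), and STRA6, the cell surface receptor for retinol binding protein, from 4.51, 2.61 and 4.05 to 20, 24.4 and 12.7 CPM (2.19 ± 0.46, adjusted p = 0.000189). In GFP control cells STRA6 had no read in the 3 DMSO libraries and 2.86, 5.34 and 14.1 CPM with CSC, which is at least 2.83-fold higher against the mean of 3 counts per library. ABCA1, the cholesterol efflux pump, went from 44.3, 29.5 and 34.4 to 167, 149 and 172 CPM (2.17 ± 0.17, adjusted p = 1.25e-23), close to its log2 fold change of 2.21 ± 0.19 in the control cells. ID1, an inhibitor of helix-loop-helix factors, went from 12.8, 17.4 and 10.1 to 56.4, 64.1 and 67.5 CPM (2.22 ± 0.26, adjusted p = 2.8e-12). DHRS3 gave 1.36 (adjusted p = 5.58e-06) and ID1 1.37 (adjusted p = 0.000296) in the control cells.

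NPAS2, a partner of the circadian clock, was the rise that had no counterpart past the threshold in the control cells. It went from 6.01, 8.69 and 4.05 to 31.7, 26.9 and 32.7 CPM in the knockout cells (2.27 ± 0.36, adjusted p = 4.97e-07), while the control cells held 31.2, 23.1 and 30.9 CPM with DMSO and 31.5, 48.1 and 33.3 CPM with CSC (0.43 ± 0.21, adjusted p = 0.132). The knockout cells therefore started lower and ended near the level of the control cells, and the difference of the effects missed the threshold (1.80 ± 0.42, adjusted p = 0.0688). Of the 12 largest rises, 11 also rose in the control cells, where 12% of all genes were higher. All 12 passed after the GC correction, with DESeq2, with edgeR and after thinning. These settings refit the libraries by which the 12 were picked, so the kept calls are no separate evidence. For none of the 12 did the difference between the lines pass the test.

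Of 15 genes for ligands of the EGF receptor, ERK feedback and early response, all were tested, 10 rose and none fell, with a median log2 fold change of 1.72, where 7.52% of all genes were higher. The ligands EREG, HBEGF, TGFA and EPGN did not pass. The GC correction left 10 higher, with a median of 1.54, where it left 2.36% of all genes higher. EGR1, an early response factor, went from 46.6, 62.5 and 47.6 to 320, 372 and 413 CPM (2.83 ± 0.14, adjusted p = 8.2e-42), and FOS, the AP-1 subunit, from 13.5, 20.8 and 14.2 to 89.3, 74.4 and 88.6 CPM (2.40 ± 0.23, adjusted p = 3.03e-16). Every CSC library exceeded every DMSO library for both. EGR1 rose by 2.56 (adjusted p = 1.65e-19) and FOS by 2.07 (adjusted p = 4.01e-07) in the control cells.

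Of the inhibitors of ERK signalling on the list, DUSP4, DUSP5, DUSP6 and SPRY4 rose, and SPRY2 did not pass (1.10 ± 0.47, adjusted p = 0.112). DUSP4, a phosphatase, went from 18, 20 and 19.2 to 85.7, 104 and 88.6 CPM (2.27 ± 0.22, adjusted p = 7.68e-17). DUSP6, an ERK phosphatase near the floor with DMSO, went from 5.26, 0.869 and 1.01 to 18.8, 23.1 and 22.1 CPM (3.21 ± 0.57, adjusted p = 6.44e-06), so its fold rests on few reads in the DMSO libraries. SPRY4, an inhibitor of receptor tyrosine kinase signalling, went from 2.25, 0.869 and 0 to 4.7, 8.98 and 10.5 CPM (2.71 ± 0.76, adjusted p = 0.00759), and it missed the threshold without the FAT1 DMSO replicate 3 library (2.16, adjusted p = 0.0505) and with DESeq2 (adjusted p = 0.0842). The remaining members that rose, named after their values were seen, were AREG, DUSP5, FOSL1, JUN and MYC. In GFP control cells 12 of the 15 rose and none fell, where 12% of all genes were higher. There DUSP4 gave 1.65 (adjusted p = 9.65e-10), DUSP6 1.61 (adjusted p = 0.00105) and SPRY4 2.07 (adjusted p = 0.00057). No difference between the lines passed the test for this list.

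Of 30 targets of NRF2, 13 rose in the knockout cells and none fell, where 7.52% of all genes were higher, with a median log2 fold change of 0.51. After the GC correction 10 were higher with a median of 0.406, where 2.36% of all genes were higher. In GFP control cells, where 12% of all genes were higher, 19 of the 30 rose, with a median of 0.72. In summed level the list went from 3090 to 3267 CPM with DMSO to 4668 to 4867 CPM with CSC in the knockout cells, and from 3323 to 3489 CPM to 5951 to 6176 CPM in the control cells.

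Both iron storage subunits of that list rose. FTL, the ferritin light chain, went from 222, 202 and 227 to 627, 523 and 604 CPM (1.45 ± 0.0849, adjusted p = 3.61e-33), and FTH1, the heavy chain, from 310, 260 and 283 to 506, 464 and 492 CPM (0.79 ± 0.0815, adjusted p = 7.95e-15). FTL rose by 1.86 (adjusted p = 7.37e-28) and FTH1 by 1.06 (adjusted p = 4.49e-21) in the control cells. Both ferritin genes have processed copies in the genome, between which reads can be divided. HMOX1, which frees iron from heme, lay near the floor with 0 to 3.85 CPM in all 6 libraries and did not pass (1.13 ± 0.82, adjusted p = 0.424), and BLVRB gave 0.17 ± 0.33 (adjusted p = 0.803). ABCC3, an exporter of conjugates, went from 24, 26.9 and 28.3 to 56.4, 83.3 and 97 CPM (1.57 ± 0.20, adjusted p = 3.05e-10), whereas the exporter ABCC2 was near the floor (-0.97 ± 0.94, adjusted p = 0.566).

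In the thioredoxin branch, TXNRD1, the reductase whose start regions are printed above, went from 255, 244 and 250 to 366, 423 and 382 CPM (0.65 ± 0.0867, adjusted p = 9.91e-10). The smaller rise of TXN, its substrate, was 0.34 ± 0.11 (adjusted p = 0.0179). PRDX1 was higher in each CSC library than in each DMSO library, at 243, 248 and 272 and 282, 296 and 312 CPM, but missed the threshold (0.24 ± 0.0911, adjusted p = 0.0618). GPX2, a glutathione peroxidase at 0 to 5.87 CPM in the 6 libraries, passed narrowly (2.26 ± 0.78, adjusted p = 0.0387), and its call was lost without any 1 of the 6 libraries (1.26 to 2.72), with edgeR (adjusted p = 0.0816) and with DESeq2 (adjusted p = 0.37). The TXN call was lost without FAT1 CSC replicate 2 (0.28), FAT1 CSC replicate 3 (0.33) or FAT1 DMSO replicate 1 (0.31).

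Glutathione synthesis moved in 1 of its genes. GCLM, the regulatory subunit of the first enzyme, went from 131, 101 and 106 to 171, 168 and 160 CPM (0.57 ± 0.12, adjusted p = 0.000169). The catalytic subunit GCLC gave 0.28 ± 0.13 (adjusted p = 0.158) in the knockout cells and 0.75 ± 0.10 (adjusted p = 1.67e-08) in the control cells, and the difference was not past the threshold (-0.51 ± 0.17, adjusted p = 0.362). Neither the cystine importer SLC7A11, with -0.024 ± 0.11 (adjusted p = 0.928), nor glutathione reductase GSR, with 0.22 ± 0.0947 (adjusted p = 0.116), passed.

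Enzymes that supply NADPH were also on the list. TKT, a transketolase, went from 426, 413 and 505 to 643, 618 and 666 CPM (0.55 ± 0.0717, adjusted p = 4.19e-10). The GC correction lowered TKT to 0.32 (adjusted p = 0.00137). TALDO1, a transaldolase, rose by 0.47 ± 0.12 (adjusted p = 0.00369) but not after that correction (0.27, adjusted p = 0.214). PGD gave 0.14 ± 0.11 (adjusted p = 0.465) and ME1 gave 0.18 ± 0.15 (adjusted p = 0.515).

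The aldo-keto reductases, known NRF2 targets, were near the floor. AKR1B10, AKR1C1, AKR1C2 and AKR1C3 lay between 0 and 5.26 CPM in the 6 libraries, none passed, and the 3 AKR1C genes are near-identical copies whose reads cannot be told apart with certainty. CBR1, a carbonyl reductase, was lower in each CSC library, at 39.9, 44.9 and 53.8 against 57.8, 57.3 and 69.9 CPM, but did not pass (-0.38 ± 0.18, adjusted p = 0.172). OSGIN1 (0.95 ± 0.81), UGDH (0.013 ± 0.21) and EPHX1 (0.41 ± 0.18) also missed the threshold. OSGIN1 (2.27, adjusted p = 0.008) and EPHX1 (1.22, adjusted p = 6.87e-06) rose in the control cells and UGDH did not pass there (-0.12, adjusted p = 0.626).

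Of the 6 genes for NRF2 itself and its partners, MAFG rose, from 45.8, 40.8 and 51.6 to 97.5, 96.2 and 74.8 CPM (0.96 ± 0.17, adjusted p = 3.24e-06), and the other 5 did not pass. MAFG encodes a small Maf protein that pairs with NRF2 on DNA. In the control cells 4 of the 6 rose. Over all genes, 7.52% were higher in the knockout cells and 12% in the control cells.

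Among metallothioneins, which bind zinc and cadmium, 2 of 5 tested rose, where 7.52% of all genes were higher. MT2A went from 156, 281 and 236 to 415, 550 and 534 CPM (1.23 ± 0.0972, adjusted p = 3.56e-22), and MT1E from 76.6, 98.1 and 109 to 101, 146 and 145 CPM (0.50 ± 0.14, adjusted p = 0.00501), with overlap of the groups for MT1E. The MT1E call was lost without FAT1 CSC replicate 2 (0.42), FAT1 CSC replicate 3 (0.41) or FAT1 DMSO replicate 1 (0.33), and after the GC correction (0.31, adjusted p = 0.178). The control cells gave 0.80 for MT2A (adjusted p = 4.69e-14) and -0.032 for MT1E (adjusted p = 0.875). Metallothionein genes are close copies of each other.

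None of 10 heat shock chaperones rose and 3 fell, where 5.15% of all genes were lower. The log2 fold changes were -0.49 ± 0.0943 for DNAJA1 (adjusted p = 3.31e-05), -0.31 ± 0.0667 for HSPA8 (adjusted p = 0.000274) and -0.16 ± 0.042 for HSP90AA1 (adjusted p = 0.00356). The groups overlapped for HSPA8 and HSP90AA1. In the control cells 6 of the 10 fell and 2 rose, where 13% of all genes were lower and 12% higher. DNAJA1 (-0.44), HSPA8 (-0.30) and HSP90AA1 (-0.34) were among the falls there. In the knockout cells the HSP90AA1 call was lost without FAT1 CSC replicate 3 (-0.15) or FAT1 DMSO replicate 2 (-0.085). It was also lost after the GC correction (-0.092, adjusted p = 0.225). With DESeq2 neither HSPA8 nor HSP90AA1 passed in the knockout cells (adjusted p = 0.371 and 0.218). Of 12 genes of the unfolded protein response of the endoplasmic reticulum, none rose and 2 chaperones fell, where 5.15% of all genes were lower. HSP90B1 gave -0.23 ± 0.0579 (adjusted p = 0.00275) and HSPA5 gave -0.23 ± 0.0624 (adjusted p = 0.00643), and neither passed after the GC correction (adjusted p = 0.67 and 0.188), by which 2 other members, CALR (-0.28, adjusted p = 0.00534) and HYOU1 (-0.37, adjusted p = 0.012), were lower. HSPA5 also missed the threshold without FAT1 CSC replicate 3 (-0.20).

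Genes of the ATF4 amino acid response were divided, with 6 of 18 higher and 2 lower, where 7.52% of all genes were higher and 5.15% lower. SLC7A5, the large amino acid transporter, went from 1326, 1430 and 1352 to 3356, 3406 and 3389 CPM (1.32 ± 0.0399, adjusted p = 3.03e-65), and SLC3A2, its heavy chain, from 363, 371 and 368 to 705, 674 and 719 CPM (0.95 ± 0.0719, adjusted p = 1.63e-23). DDIT4, an inhibitor of mTORC1, went from 421, 377 and 371 to 855, 813 and 752 CPM (1.05 ± 0.0705, adjusted p = 5.67e-28). The transcription factor CEBPB rose by 1.28 ± 0.18 (adjusted p = 3.8e-09) and by 0.67 after the GC correction (adjusted p = 0.00819). SLC7A5 (1.14), SLC3A2 (0.78), DDIT4 (1.11) and CEBPB (0.71) also rose in the control cells. In the other direction, the factor DDIT3 gave -0.83 ± 0.29 (adjusted p = 0.0466) and MTHFD2, of mitochondrial folate metabolism, -0.37 ± 0.10 (adjusted p = 0.00576). Both of these calls were lost after the GC correction (adjusted p = 0.0512 and 0.125). MTHFD2 also missed the threshold without FAT1 CSC replicate 3 (-0.32), and DDIT3 without any 1 of the libraries other than FAT1 DMSO replicate 3 (-0.95 to -0.60).

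Of 18 targets of p53, 2 rose and 1 fell, where 7.52% of all genes were higher and 5.15% lower. CDKN1A, the inhibitor of cyclin-dependent kinases, went from 238, 193 and 188 to 284, 294 and 275 CPM (0.47 ± 0.0965, adjusted p = 0.000137), and after the GC correction it gave 0.15 (adjusted p = 0.456). GDF15 gave 1.24 ± 0.45 (adjusted p = 0.0483) and RRM2B, a ribonucleotide reductase subunit, -0.53 ± 0.14 (adjusted p = 0.00455). No member of this list passed after the correction. GDF15 kept its call in 1 of the 6 fits without a library, the one without FAT1 DMSO replicate 1, and was otherwise at 0.80 to 1.40. RRM2B lost its call without FAT1 CSC replicate 3 (-0.48) or FAT1 DMSO replicate 1 (-0.34).

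The 12 largest falls were led by AMOT, the angiomotin scaffold that binds YAP, which went from 46.6, 24.3 and 27.3 CPM with DMSO to 3.52, 6.41 and 5.27 CPM with CSC (-2.56 ± 0.44, adjusted p = 2.17e-06). In the control cells AMOT went from 30.3, 22.1 and 29.3 to 9.54, 12 and 7.05 CPM (-1.45 ± 0.30, adjusted p = 0.000136). It separated the groups in both lines. TXNIP, an inhibitor of thioredoxin and of glucose uptake, went from 487, 348 and 363 to 125, 165 and 173 CPM (-1.37 ± 0.11, adjusted p = 1.02e-22), with -1.30 ± 0.0956 in the control cells. PLCB4, a phospholipase C, gave -1.84 ± 0.38 (adjusted p = 0.000155), and SEMA3E, a secreted guidance cue, -1.53 ± 0.30 (adjusted p = 5.21e-05). SULT1E1, the estrogen sulfotransferase, went from 25.5, 20.8 and 23.3 to 7.05, 8.98 and 9.49 CPM (-1.38 ± 0.36, adjusted p = 0.00333). The control cells gave -0.90 for PLCB4 (adjusted p = 0.00335), -1.52 for SEMA3E (adjusted p = 0.0321) and -0.47 for SULT1E1 (adjusted p = 0.325).

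DEPDC7 (-1.58 ± 0.44), ZNF713 (-1.41 ± 0.43), PHACTR3 (-1.40 ± 0.40) and MYCL (-1.35 ± 0.44), at 2.35 to 24.3 CPM in the 6 libraries, completed the group with KRT14, IFIT1 and IFIT2, described with their lists. The calls of these 4 genes were the least secure. DEPDC7 missed the threshold without FAT1 CSC replicate 1 (-1.09), PHACTR3 without FAT1 CSC replicate 3 (-1.03), ZNF713 without FAT1 CSC replicate 2 (-1.22) or 3 (-1.36), and MYCL without any 1 of the libraries other than FAT1 DMSO replicate 3 (-1.41 to -1.22). All 4 also missed it with DESeq2. Of the 12 largest falls, 8 also fell in the control cells, where 13% of all genes were lower. All 12 passed after the GC correction and with edgeR, 10 passed after thinning and 8 with DESeq2. These settings refit the libraries by which the 12 were picked, so the kept calls are no separate evidence. For none of the 12 falls did the difference between the lines pass the test.

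Interferon-stimulated genes were among the falls, with 5 of 17 lower and none higher against a background of 5.15% lower. IFIT1, an antiviral RNA sensor, went from 44.3, 46.9 and 35.4 to 11.7, 25.6 and 10.5 CPM (-1.51 ± 0.28, adjusted p = 1.79e-05), IFIT2 from 98.4, 91.2 and 114 to 35.2, 30.8 and 61.1 CPM (-1.25 ± 0.18, adjusted p = 2.45e-08) and IFIT3 from 81.9, 66 and 67.8 to 36.4, 30.8 and 40.1 CPM (-0.98 ± 0.19, adjusted p = 4.86e-05). IFI44, the fifth, gave -0.63 ± 0.17 (adjusted p = 0.00384). DDX58, which encodes the sensor RIG-I, gave -0.66 ± 0.16 (adjusted p = 0.00177). No CSC library reached the lowest DMSO library for any of these 5, but the share of all genes without overlap is not given here.

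The same genes started from another level in the control cells. The summed level of the list was 724 to 789 CPM with DMSO in the knockout cells against 392 to 435 CPM in the control cells, and IFIT2 was at 9.76, 15.4 and 12.3 CPM with DMSO and 7.63, 11.4 and 15.1 CPM with CSC in the control cells (-0.17 ± 0.33, adjusted p = 0.759). IFI44 was at 93.1, 78.2 and 80 CPM with DMSO in the knockout cells against 3.91, 3.85 and 3.86 CPM in the control cells, and IFIT1 was near the floor in the latter, at 2.93, 1.92 and 6.17 CPM with DMSO and 0, 0.668 and 0 CPM with CSC. In the control cells, 2 of 15 tested fell, IFIT1 among them (adjusted p = 0.0184), where 13% of all genes were lower. The difference of the effects missed the threshold for IFIT1 (1.07 ± 0.91, adjusted p = 0.795), IFIT2 (-1.11 ± 0.40, adjusted p = 0.394) and IFIT3 (-0.83 ± 0.38, adjusted p = 0.572). After the GC correction 3 members, of 16 with a known composition, were lower in the knockout cells, where 2.93% of all genes were lower.

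Of 16 genes of mitosis, 10 fell and none rose, where 5.15% of all genes were lower, with a median log2 fold change of -0.45. In the control cells 10 were lower and 1 higher (median -0.45), where 13% of all genes were lower and 12% higher. CENPF, a kinetochore protein, went from 1339, 1433 and 1277 to 803, 854 and 799 CPM (-0.71 ± 0.0557, adjusted p = 1.23e-22), and TOP2A, the topoisomerase of dividing cells, from 1311, 1477 and 1381 to 760, 927 and 884 CPM (-0.68 ± 0.0563, adjusted p = 5.24e-21). CDK1, the mitotic kinase, gave -0.66 ± 0.13 (adjusted p = 9.37e-05) and the kinesin CENPE -0.66 ± 0.0948 (adjusted p = 1.88e-08). All 4 separated the groups, though the share of all genes that did so is not given here. All 4 passed after the GC correction, by which 8 of the 16 were lower, where 2.93% of all genes were. In bulk samples, fewer cells in mitosis and less RNA per cell cannot be told apart.

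Genes of DNA replication did not share 1 direction, with 3 of 18 higher and 6 lower, where 7.52% of all genes were higher and 5.15% lower. E2F1, the factor that opens S phase, rose by 0.63 ± 0.16 (adjusted p = 0.00298), and CDT1 and MCM5, which license origins, by 0.50 ± 0.14 (adjusted p = 0.00904) and 0.45 ± 0.13 (adjusted p = 0.011). After the GC correction none of the 3 passed, and CDT1 changed sign (-0.045, adjusted p = 0.921). CDT1 (0.37) and MCM5 (0.34) also missed the threshold without FAT1 DMSO replicate 1. The ribonucleotide reductase subunits RRM1 and RRM2 gave -0.35 ± 0.0806 (adjusted p = 0.000876) and -0.42 ± 0.12 (adjusted p = 0.0063), RRM2 with a loss of the call without FAT1 DMSO replicate 2 (-0.31). CCNE2 (-0.41 ± 0.14) lost its call without FAT1 CSC replicate 2 or 3 or FAT1 DMSO replicate 2 or 3 (-0.37 to -0.35), and CDC6 (-0.34 ± 0.12) without FAT1 CSC replicate 3 (-0.18), FAT1 DMSO replicate 2 (-0.32) or FAT1 DMSO replicate 3 (-0.33). RRM1, CCNE2 and CDC6 also missed the threshold after the GC correction (adjusted p = 0.0619, 0.557 and 0.192).

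Genes of lipid synthesis moved in both directions. Of 22 genes 5 rose and 5 fell, where 7.52% of all genes were higher and 5.15% lower. FASN, the fatty acid synthase, went from 1027, 909 and 871 to 2213, 2003 and 2056 CPM (1.17 ± 0.0494, adjusted p = 8.96e-48), and SREBF1, the factor that drives it, from 132, 137 and 150 to 318, 291 and 314 CPM (1.16 ± 0.10, adjusted p = 4.59e-19). Both remained higher after the GC correction, FASN by 0.67 (adjusted p = 4.1e-22) and SREBF1 by 0.66 (adjusted p = 3.29e-07). Of the sterol enzymes, DHCR7 rose by 0.74 ± 0.12 (adjusted p = 1.14e-06), while SQLE fell from 239, 209 and 222 to 144, 147 and 177 CPM (-0.50 ± 0.11, adjusted p = 0.000269), as did SC5D (-0.75 ± 0.17, adjusted p = 0.000557) and HMGCS1 (-0.44 ± 0.11, adjusted p = 0.00205).

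SQLE and SC5D passed after the GC correction and HMGCS1 did not (adjusted p = 0.176). FASN (1.05), SREBF1 (1.01) and DHCR7 (0.60) also rose in the control cells, and SC5D (-0.39) and HMGCS1 (-0.32) also fell. SQLE did not pass there (-0.091, adjusted p = 0.458). SREBF2, the sterol regulator, gave 0.36 ± 0.10 (adjusted p = 0.0081) and STARD4, a sterol carrier, -0.39 ± 0.12 (adjusted p = 0.0203). Neither passed after the correction (adjusted p = 0.817 and 0.661). SREBF2 also missed the threshold without FAT1 CSC replicate 3 (0.31), and STARD4 without FAT1 CSC replicate 2 or 3 or FAT1 DMSO replicate 1 or 2 (-0.40 to -0.36).

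Subunits of the ribosome and proteasome moved by small amounts in both directions, with 7 of 22 ribosomal protein genes higher and 3 lower, and 4 of 20 proteasome genes higher and 1 lower. Over all genes 7.52% were higher and 5.15% lower, so the share of proteasome genes that fell was near that of all genes. RPS9 rose by 0.80 ± 0.11 (adjusted p = 1.2e-09) and RPS2 by 0.61 ± 0.0828 (adjusted p = 2.33e-09), whereas RPS6 fell from 1530, 1649 and 1670 to 1071, 1222 and 1157 CPM (-0.47 ± 0.05, adjusted p = 2.64e-14) as did RPL7A (-0.31 ± 0.0683, adjusted p = 0.000319). After the GC correction 2 ribosomal genes were higher and 5 lower, where 2.36% of all genes were higher and 2.93% lower. The balance of this list thus turned, and processed copies of these genes can take part of their reads. RPL28, RPS19 and RPL5 were no longer past the threshold (adjusted p = 0.0913, 0.127 and 0.67), and RPL5 also missed it without FAT1 CSC replicate 1 (-0.18). PSMB7, a catalytic subunit of the proteasome, went from 63.8, 89.5 and 85 to 125, 137 and 120 CPM (0.72 ± 0.14, adjusted p = 2.84e-05) and passed after the correction. PSMB4 (0.35) and PSMB2 (0.23) missed the threshold without FAT1 DMSO replicate 1, PSMB2 also without FAT1 CSC replicate 3 (0.26), PSMB6 without FAT1 CSC replicate 1 or 3 or FAT1 DMSO replicate 1 or 3 (0.33 to 0.44), and PSMA4 without any 1 of the libraries other than FAT1 DMSO replicate 3 (-0.33 to -0.23). PSMB6 (0.21, adjusted p = 0.44) and PSMA4 (-0.16, adjusted p = 0.467) also missed it after the GC correction.

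Of 10 airway basal markers, 3 fell and 1 rose, where 5.15% of all genes were lower and 7.52% higher. The other 6 did not pass, among them KRT15 (-0.052 ± 0.31, adjusted p = 0.944) and KRT17 (0.14 ± 0.0727, adjusted p = 0.199). KRT14 went from 57.1, 35.6 and 43.5 to 25.8, 14.1 and 16.9 CPM (-1.25 ± 0.26, adjusted p = 0.000135), and KRT5 from 2974, 2923 and 2955 to 2321, 2407 and 2319 CPM (-0.32 ± 0.0358, adjusted p = 6.92e-13). Corrected for GC content, these falls were -1.65 (adjusted p = 8.68e-07) and -0.59 (adjusted p = 5.09e-28). DSG3, a desmosomal cadherin, gave -0.34 ± 0.0939 (adjusted p = 0.00576), lost without FAT1 CSC replicate 3 (-0.27) and after the correction (adjusted p = 0.141). ITGB4, the integrin of hemidesmosomes, rose by 0.54 ± 0.0676 (adjusted p = 1.22e-10) but gave 0.037 after the correction (adjusted p = 0.85). In the control cells 4 of the 10 fell and 3 rose, where 13% of all genes were lower and 12% higher. There KRT14 (-0.79), KRT5 (-0.21) and DSG3 (-0.65) also fell and ITGB4 (0.60) also rose.

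Of 15 genes of the squamous envelope, 4 were tested. SCEL, a precursor protein of that envelope, went from 39.8, 53 and 58.7 to 17.6, 29.5 and 23.2 CPM (-1.06 ± 0.24, adjusted p = 0.000447), and TGM1, the crosslinking transglutaminase, gave -1.71 ± 0.61 (adjusted p = 0.0486) at 1.17 to 12.1 CPM in the 6 libraries. The TGM1 call was lost without any 1 of the libraries other than FAT1 DMSO replicate 1 (-2.03 to -1.42).

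Of 19 tested genes of matrix and of epithelial to mesenchymal transition, 4 rose and 1 fell, where 7.52% of all genes were higher and 5.15% lower. After the GC correction 3 were higher and 4 lower, where 2.36% of all genes were higher and 2.93% lower, so the balance of the list turned. TGFBI, a matrix protein induced by TGF-β, went from 417, 409 and 497 to 657, 650 and 746 CPM (0.67 ± 0.0716, adjusted p = 6.96e-14), and SNAI2, the factor Slug, from 66.1, 53 and 61.8 to 91.6, 96.2 and 103 CPM (0.70 ± 0.15, adjusted p = 0.000274). ITGB4, shared with the basal markers, also rose. TGFBI and SNAI2 separated the groups and passed after the GC correction. COL17A1, a hemidesmosomal collagen, gave -0.25 ± 0.0777 (adjusted p = 0.0208) and -0.51 after the correction, and its uncorrected call was lost without FAT1 CSC replicate 2 (-0.23), FAT1 CSC replicate 3 (-0.14) or FAT1 DMSO replicate 3 (-0.24). The only gene of the fibroblast, endothelial and leukocyte list to rise was COL1A1, from 24, 16.5 and 20.2 to 37.6, 42.3 and 32.7 CPM (0.88 ± 0.24, adjusted p = 0.00693), with COL3A1 at 0 in every library, and the list as a whole summed to 21.7 to 36.8 CPM with DMSO and 48.5 to 60.3 CPM with CSC. Its call was lost after the correction (adjusted p = 0.346) and without FAT1 DMSO replicate 2 (0.73).

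Because FAT1 acts on the Hippo pathway, its kinases, cofactors and YAP targets were followed. Of 21 tested, 3 rose and 2 fell, with a median log2 fold change of 0.00555, where 7.52% of all genes were higher and 5.15% lower. CYR61, a secreted YAP target, went from 65.3, 73 and 59.7 to 90.4, 135 and 111 CPM (0.75 ± 0.15, adjusted p = 4.99e-05), close to its 0.73 ± 0.19 in the control cells, and AMOT fell as described. CTGF (1.52 ± 0.55, adjusted p = 0.0497), the cadherin FAT2 (0.20 ± 0.0667, adjusted p = 0.033) and the kinase adaptor MOB1A (-0.24 ± 0.084, adjusted p = 0.0466) passed narrowly. CTGF lost its call without any 1 of the libraries other than FAT1 DMSO replicate 3 (0.60 to 1.82) and with edgeR (adjusted p = 0.144), FAT2 without FAT1 CSC replicate 1 or 3 or FAT1 DMSO replicate 2 (0.14 to 0.20) and MOB1A without FAT1 CSC replicate 1 or 3 or FAT1 DMSO replicate 1 or 2 (-0.24 to -0.20). FAT2 and MOB1A also missed the threshold after the GC correction (adjusted p = 0.854 and 0.937). CYR61 and CTGF had no known composition and were not corrected. Of the 19 members that were, 2 were lower and none higher, where 2.93% of all genes were lower and 2.36% higher. YAP1 itself did not pass (0.0055 ± 0.10, adjusted p = 0.982), and no difference between the lines passed the test for this list.

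Inflammatory genes were scarce, with 6 of 17 tested and a median log2 fold change of 0.0384. Of these 1 rose, where 7.52% of all genes were higher. It was IL1A, the epithelial alarm cytokine, from 10.5, 9.55 and 13.2 to 27, 38.5 and 35.8 CPM (1.60 ± 0.30, adjusted p = 1.48e-05). The other 5 did not pass, among them IL1B (1.10, adjusted p = 0.234) and NFKBIA (0.155, adjusted p = 0.609). In the control cells IL1A rose by 1.51 ± 0.26. There 3 of 7 tested rose, with a median of 1.33, where 12% of all genes were higher.

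**Figure D2:**
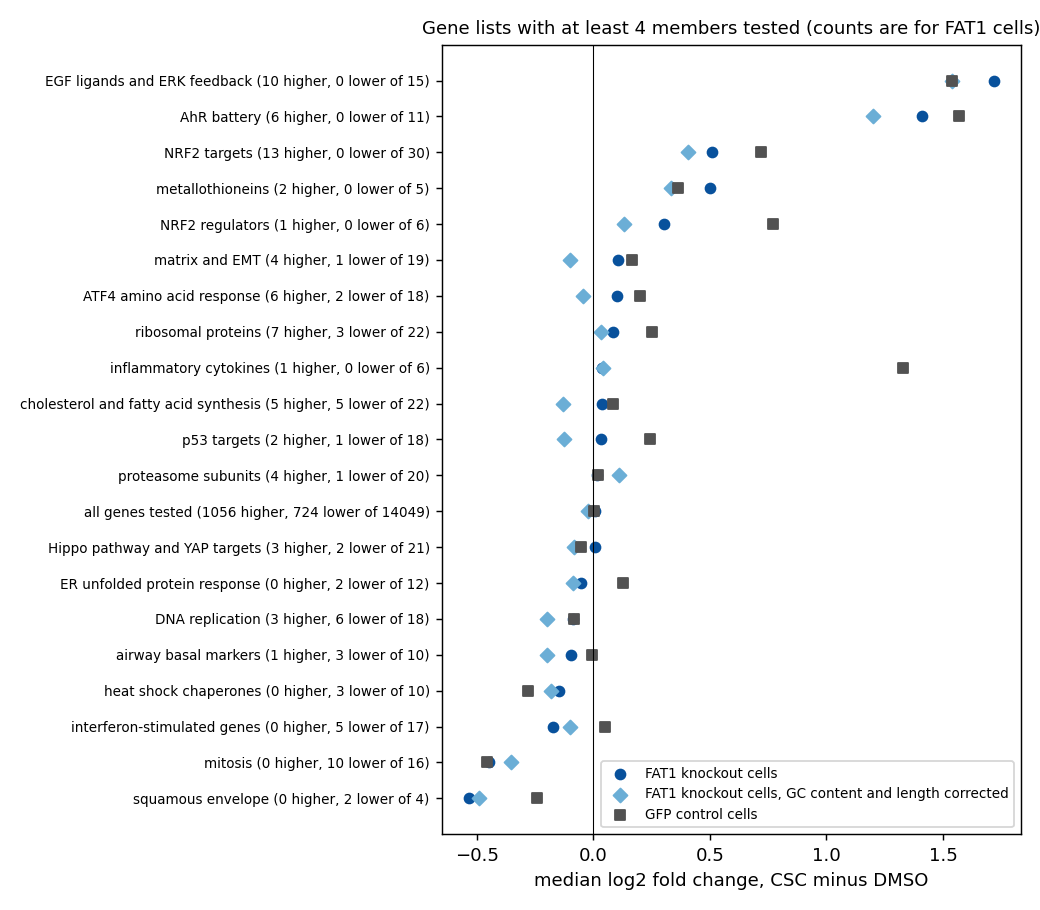
Median log2 fold change of CSC against DMSO (horizontal axis) for each gene list with at least 4 members tested and for all genes (vertical axis), in FAT1 knockout cells as counted (circles), in FAT1 cells after correction for GC content and length (diamonds) and in GFP control cells (squares). The counts beside each name are the members past the threshold in FAT1 cells. The growth factor, AhR and NRF2 lists lay highest in FAT1 cells at 1.72, 1.41 and 0.51, and mitosis lay at -0.45, while all genes lay at 0.00822.

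The fold changes followed the base composition of the transcripts in both lines. Among genes averaging 10 or more reads, the median log2 fold change in the knockout cells was -0.22 for 2014 genes with up to 40% GC and 0.46 for 1101 genes above 60% GC. In the GFP control cells these medians were -0.36 and 0.60. Across genes Spearman's rho of fold change with GC content was 0.593 in the knockout cells (9649 genes) and 0.736 in the control cells (9920 genes). Genes called higher in the knockout cells had a median GC content of 59.2%, and those called lower had 40.1%, against 47.5% over all genes tested. Of genes above 60% GC, 38.1% were called higher, compared with 0.794% of those up to 40% GC. The trend had the same direction in the 2 lines, whether its strength differed was not tested, and its part in the result of any single gene was not tested beyond the corrected values given here.

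**Figure D3:**
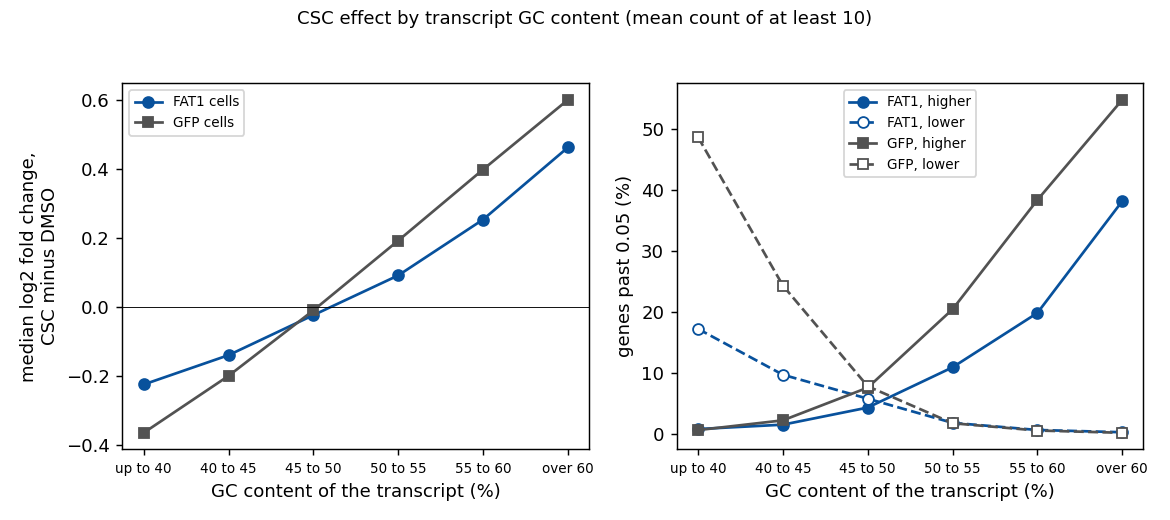
Median log2 fold change of CSC against DMSO (left) and percentage of genes past the threshold in each direction (right) by GC content class of the transcript, for genes averaging 10 or more reads in FAT1 knockout cells and GFP control cells. The medians climb from -0.22 to 0.46 in FAT1 cells and from -0.36 to 0.60 in GFP cells.

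The responses of the 2 lines were then compared. Of the 1056 genes higher in knockout cells, 748 (70.8%) were also called higher in control cells, which is 43.6% of the 1717 called there. Of the 724 lower genes, 538 (74.3%) were also called lower in the control cells, or 29% of the 1858. Over 10208 genes averaging 10 or more reads, the fold changes had a Pearson's r of 0.7 and a Spearman's rho of 0.686, and over 9831 genes after the GC correction 0.525 and 0.447. These correlations are across genes, which are not independent and share the composition trend above. A single gene, DPYSL3, named after its values were seen, passed in opposite directions. It went from 19.5, 17.4 and 19.2 to 10.6, 5.13 and 8.43 CPM in the knockout cells and from 0.976, 5.77 and 0.772 to 6.68, 7.35 and 7.05 CPM in the control cells, and the difference missed the threshold (-3.02 ± 0.70, adjusted p = 0.0617).

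**Figure D4:**
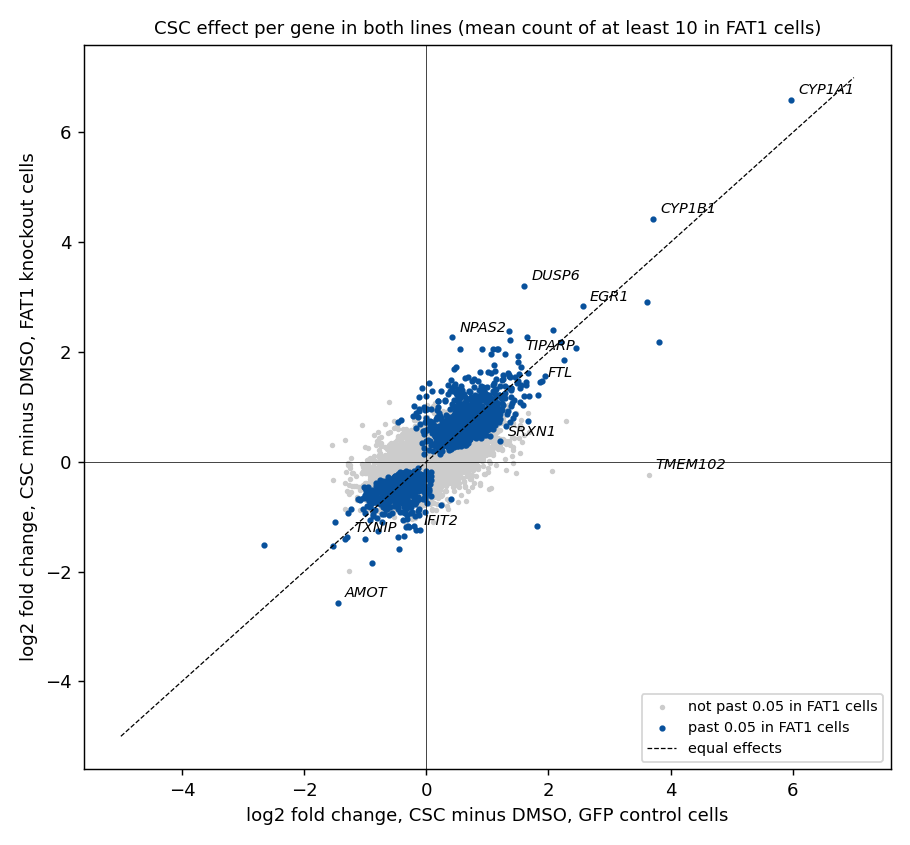
Log2 fold change of CSC against DMSO in GFP control cells (horizontal axis) and FAT1 knockout cells (vertical axis), 1 point per gene averaging 10 or more reads in FAT1 cells. Dark points passed the threshold in FAT1 cells and the dashed line marks equal effects. CYP1A1 lies at 5.97 and 6.60, and most genes called in FAT1 cells lie in the same direction in both lines.

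The difference of the CSC effects was tested directly in all 12 libraries. It passed the threshold for 11 of 14344 genes, 1 with the higher value in the knockout cells (0.00697%) and 10 with the lower (0.0697%), while 1172 genes had an unadjusted p under 0.05. After the GC correction none of 13420 passed by limma-voom, where 877 had an unadjusted p under 0.05, and DESeq2 called none either, where 464 did. No gene passed without FAT1 CSC replicate 2 (999 at an unadjusted p under 0.05), FAT1 CSC replicate 3 (1094), GFP CSC replicate 2 (1033) or GFP DMSO replicate 3 (1133), 1 passed without GFP DMSO replicate 1, 4 without FAT1 CSC replicate 1 or FAT1 DMSO replicate 1, 6 without FAT1 DMSO replicate 3, 7 without GFP CSC replicate 1 and 19 without FAT1 DMSO replicate 2. With all 12 libraries and no correction, 5 passed with the size factors of DESeq2 in limma-voom and none without a filter on low counts (1393 at an unadjusted p under 0.05). The differences below are those of the settings given first.

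SQSTM1, the autophagy receptor p62 and an NRF2 target, went from 184, 198 and 181 to 294, 323 and 308 CPM in knockout cells (0.73 ± 0.0957, adjusted p = 6.98e-10) and from 108, 131 and 133 to 309, 334 and 326 CPM in control cells (1.38 ± 0.0948, adjusted p = 1.43e-19). It ended at a similar level in both lines but started higher in the knockout cells, and the effects differed by -0.69 ± 0.13 (adjusted p = 0.00941). SRXN1, the sulfiredoxin that restores oxidised peroxiredoxins, started alike and parted under CSC. It went from 82.6, 92.1 and 93.1 to 109, 121 and 113 CPM in knockout cells (0.37 ± 0.13, adjusted p = 0.0477) and from 91.8, 85.6 and 81 to 193, 213 and 188 CPM in control cells, a difference of -0.88 ± 0.17 (adjusted p = 0.00941). The SRXN1 rise in knockout cells lost its own call without any 1 of the 6 libraries (0.30 to 0.41) and after the GC correction (0.27, adjusted p = 0.283). These were the 2 of 30 NRF2 targets that differed, against 0.0697% of all genes lower, and neither passed after the correction (adjusted p = 0.0837 and 0.0541).

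CDKN1A rose less in knockout cells, where it went from 238, 193 and 188 to 284, 294 and 275 CPM, than in control cells, where it went from 171, 200 and 211 to 366, 442 and 394 CPM (difference -0.62 ± 0.13, adjusted p = 0.0261). KRT17, a keratin of activated basal cells, was at 457, 481 and 536 CPM with DMSO and 559, 527 and 517 CPM with CSC in knockout cells, and went from 673, 780 and 709 to 1087, 1113 and 987 CPM in control cells (difference -0.46 ± 0.0887, adjusted p = 0.00941). PKM, a glycolytic enzyme, was at 952, 962 and 984 and 1001, 948 and 1058 CPM in knockout cells and went from 1205, 1372 and 1268 to 1630, 1681 and 1622 CPM in control cells (difference -0.33 ± 0.0647, adjusted p = 0.00941). For KRT17 and PKM the groups overlapped in the knockout cells and not in the control cells. SLC44A2, a choline transporter, was at 167, 162 and 160 and 191, 182 and 187 CPM in knockout cells and went from 109, 129 and 116 to 209, 206 and 213 CPM in control cells (difference -0.66 ± 0.14, adjusted p = 0.0261).

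AHNAK, a very large scaffold protein, fell in both lines and further in the knockout cells, from 4287, 3896 and 4123 to 3291, 2936 and 3079 CPM there and from 5531, 5966 and 5767 to 4783, 5114 and 4865 CPM in control cells (difference -0.21 ± 0.0411, adjusted p = 0.00941). TMEM102 gave the largest difference in size (-3.90 ± 0.83, adjusted p = 0.0261), but it lay at 0 to 18 CPM in all 12 libraries and 2 of the 3 DMSO libraries of the control cells had no read. The 3 further genes past the threshold, 2 of which tie in adjusted p with genes above and which the rule for naming left out, were GTPBP2 (-1.11 ± 0.24) and HUWE1 (-0.30 ± 0.0665), with the lower effect in the knockout cells, and KIF20B, a mitotic kinesin whose fall was the smaller there (0.53 ± 0.11).

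**Figure D5:**
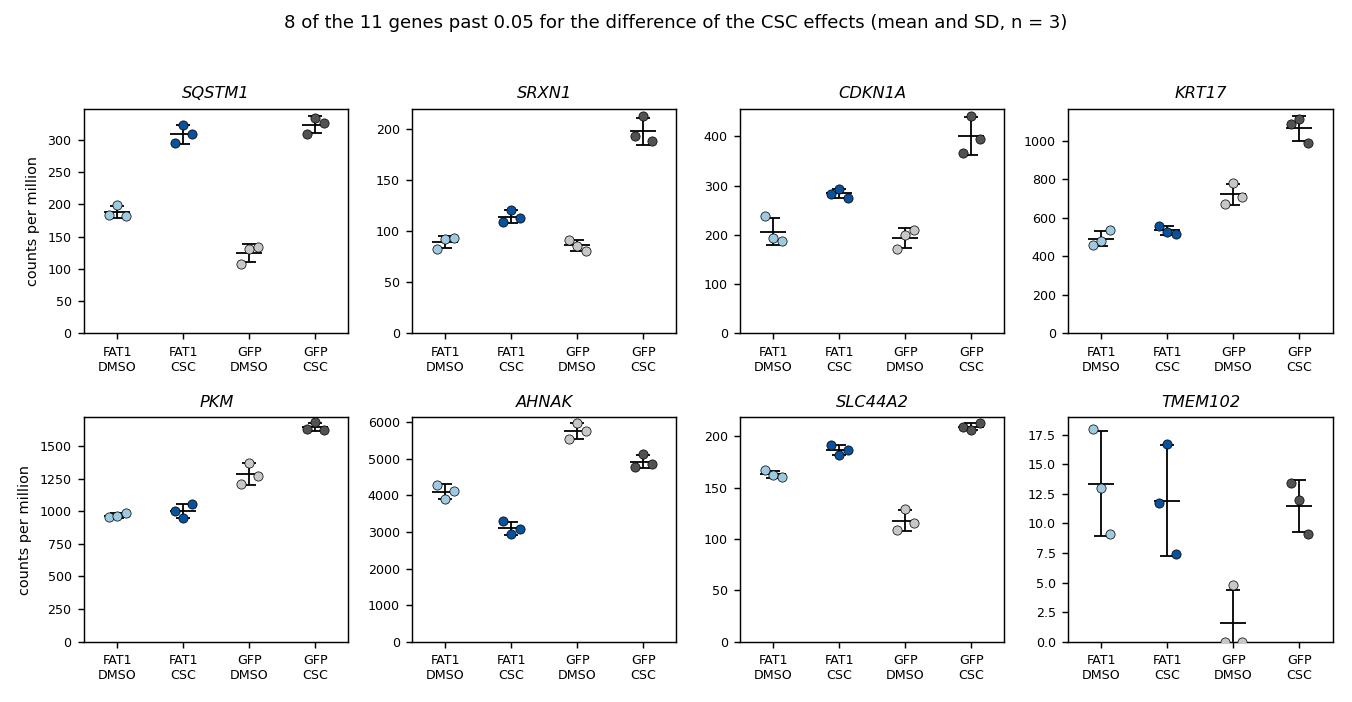
Levels in CPM (vertical axes, starting at 0) of 8 of the 11 genes past the threshold for the difference of the CSC effects, in FAT1 knockout and GFP control cells given DMSO or CSC (horizontal axis). Points are single libraries, and the bars give the mean and SD of 3. SRXN1 reached 109 to 121 CPM with CSC in FAT1 cells and 188 to 213 CPM in GFP cells, from similar DMSO levels.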

How the data were processed

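RNA was profiled by sparse full length RNA sequencing with ribosomal RNA depletion on a NextSeq 550, single-end, without molecular identifiers. Per the study's methods and the submitters' processing notes, the authors trimmed reads with Cutadapt 1.12, checked them with FastQC 0.11.5, aligned them to hg19 with STAR 2.5.2b and counted them in RefSeq genes with featureCounts. The deposited values are raw read counts per gene, 1 table per sample and 27978 genes each; the strandedness of the libraries and of the counting is not given in the sources used here, so overlapping antisense genes cannot be told apart.

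From these counts, genes with a mean count above 1 were fitted with limma-voom (limma 3.58.1, edgeR 4.0.16 for TMM factors, R 4.3.3), 2-sided, with Benjamini-Hochberg adjustment over all genes tested and a threshold of 0.05. The FAT1 and GFP comparisons used 6 libraries each and shared none, and their difference was an interaction term over 12 libraries. Groups came from the sample labels; the other samples of the series were not used. Detection floors of 3 counts cover counting error only. The share of all genes without overlap of the groups is not given, so a separation describes only the gene named. GC content and length of transcripts came from the reference annotation. For each library, the correction took the deviation of log2 CPM from the gene's mean over the libraries fitted. It removed the loess trend of this deviation on GC content and log2 length. The genes and gene lists were chosen with earlier results of these data known. Named were FAT1 and CYP1A1, the 12 largest rises and the 12 largest falls averaging 10 or more reads without overlap of the groups, all AhR and NRF2 list members, up to 4 members per direction of other lists, or the 2 with the highest mean count where none passed, and the 8 smallest adjusted p of the difference, with ties ordered by the unadjusted p; other genes are said to be outside this rule. A few genes of these lists are counted in them but not reported here by name. The scripts were tested on simulated data. The alternatives comprised DESeq2 1.42.0, the quasi-likelihood test of edgeR, other size factors, other filters, a replicate block, the GC and length correction, 1 joint fit, leaving out each library, and 2 chosen after seeing the data (thinning every library to the smallest, and the genes of known composition without the correction).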

Additional observations from a re-analysis of the deposited data

Results flagged for a closer look

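The difference of the CSC effects, FAT1 knockout minus GFP control cells, passed the interaction test of limma-voom for 11 genes, which is why they are listed. On the log2 scale it was -0.69 for SQSTM1, -0.21 for AHNAK, -0.33 for PKM, -0.46 for KRT17 and -0.88 for SRXN1, each with an adjusted p of 0.00941. It was -0.62 for CDKN1A, -1.11 for GTPBP2, 0.53 for KIF20B, -3.90 for TMEM102 and -0.66 for SLC44A2, each with an adjusted p of 0.0261, and -0.30 for HUWE1 with an adjusted p of 0.0339. After the correction for GC content and length the lowest adjusted p among them was 0.0541, and DESeq2 called none of them. The direction of all 11 was the same under every alternative run, in 253 values, of which 145 lost the call. The alternatives refit the libraries by which the 11 were picked, so the kept direction is no separate evidence. For SQSTM1, AHNAK, PKM, KRT17, TMEM102, SLC44A2 and HUWE1 the DMSO libraries of the 2 lines did not overlap. The share of all genes without such overlap is not given here, so this describes each gene and is no trait of the group. Outlying values within a group were not tested, since the groups hold 3 libraries.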

How the results depend on the processing

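Against 1780 genes past the threshold in FAT1 knockout cells, DESeq2 called 592, the GC and length correction 696 and that correction with the replicate block 864, and leaving out 1 library gave 1126 to 1552. Against 3575 in GFP control cells, these gave 1635, 937, 1155 and 2479 to 3198. The difference between the lines passed for 11 genes, for 5 with DESeq2's size factors in limma-voom, 0 with DESeq2 (464 at an unadjusted p under 0.05), 0 with no filter on low counts (1393), 57 with the replicate block, 0 after the GC and length correction (877), 25 after it with the block, 6 on the genes of known composition without it, and 0 to 19 leaving out 1 library. The cause of these shifts was not tested. The replicate numbers were not taken as pairing. Each library's deviations from its group mean were correlated between CSC and DMSO libraries of a line. Same-number libraries gave 0.0326 to 0.0761. By these deviations every library correlated best with its own number, a hint from the data and not the design. With the block, 1981 genes passed in the knockout and 3671 in the control cells. Of 2370 values for 134 named genes, 2134 kept their standing, 227 lost the call and 7 gained it. For genes past the threshold, 2 values changed sign, both of CDT1 (-0.045 after the correction, -0.049 with the block too). A gene that stayed short of the threshold counts as kept whatever its sign. Some of these genes changed sign, as KRT17 did (-0.17 to 0.21). Of 253 values for the 11 differences, 145 lost the call. Thinning and the genes of known composition were chosen after seeing the data; thinning gave 1310, 3189 and 8 calls. Genes under about 3 counts per library are not measurable at this depth.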
